A study of Mus musculus with 34 samples.

Results

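CD28 is the receptor that gives a T cell its costimulatory signal beside the antigen receptor, and the 10 genes described here encode CD28, its relatives CTLA-4, ICOS, PD-1 and BTLA, and 5 further receptors that restrain T cells (LAG-3, TIM-3, TIGIT, CD160 and CD5). They were chosen by name (Cd28, Ctla4, Icos, Pdcd1, Btla, Lag3, Havcr2, Tigit, Cd160 and Cd5), and all 10 of them were found among the 48526 genes counted and passed the filter on low counts. Total RNA was sequenced from T cells purified by negative selection from spleens of C57BL/6 mice aged 6 to 12 weeks, and all stimulated cultures received antibodies to CD3 and CD28 with recombinant IL-2 for 24 h (day 1) or 72 h (day 3). The 34 libraries formed 13 groups. Libraries labelled CD28 KO numbered 2 on each day. DKI, CD28 AYAA, CD28 Y170F and Ars2 KO had 3 libraries on each day. Stimulated WT had 2 libraries on each day, and unstimulated WT (day 0) had 2 libraries. Of the alleles, AYAA alters the proline motif in the tail of CD28 and Y170F alters its tyrosine motif. What DKI carries is not stated in the labels. Ars2 is the product of Srrt, a partner of the nuclear cap-binding complex. The labels name no promoter or cell type that limits the Ars2 deletion. By its title, the series asks how CD28 bears on splicing, glycolysis and effector function of CD8 T cells.

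CD28 binds CD80 and CD86 on antigen-presenting cells, and its tail recruits phosphoinositide 3-kinase through the tyrosine motif and the kinase LCK through the proline motif. CTLA-4 is induced after activation, takes the same ligands away from CD28 and recycles through a tyrosine motif that binds a clathrin adaptor. ICOS is induced by activation, binds ICOS ligand and carries a tyrosine motif like that of CD28. PD-1 and BTLA bind phosphatases through their tails, LAG-3 binds MHC class II, TIM-3 binds galectin-9, TIGIT competes with CD226 for the poliovirus receptor, BTLA and CD160 bind the herpesvirus entry mediator, and CD5 dampens antigen receptor signals.

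The coding ends of Cd28, Icos and Ctla4 are shown because the CD28 alleles alter motifs of the first of them and the other 2 carry the related motif. Each stretch runs from 5 codons before the tyrosine motif to the stop codon, on the + strand of GRCm38 chromosome 1, as the GENCODE M21 transcripts give it. Capitals mark the 4 codons of the tyrosine motif and, in Cd28 alone, the 4 codons of the proline motif as well.
Cd28, chr1:60769678-60769785, exon 4 of 4: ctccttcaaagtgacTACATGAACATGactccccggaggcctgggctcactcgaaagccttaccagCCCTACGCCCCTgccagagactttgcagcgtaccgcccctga
Icos, chr1:60995545-60997714, split over 2 exons: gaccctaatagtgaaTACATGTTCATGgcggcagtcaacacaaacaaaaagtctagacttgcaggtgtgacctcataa
Ctla4, chr1:60914631-60914717, exon 4 of 4: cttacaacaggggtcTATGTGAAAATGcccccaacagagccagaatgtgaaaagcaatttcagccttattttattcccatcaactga
Counted from the start codon of each precursor, the tyrosine motif begins at codon 189 of 218 in Cd28, at codon 181 of 200 in Icos and at codon 201 of 223 in Ctla4, and the proline motif of Cd28 begins at codon 206.

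Libraries held 8.3 to 47.8 M counts. All 6 DKI libraries and WT number 4 on both days held 8.3 to 10.6 M, while the other 26 held 15.7 to 47.8 M, so DKI and 1 of the 2 WT libraries of each day were shallower than the rest. Number 3 of the Ars2 KO libraries at day 3 stood apart from the other 2. Levels are given in CPM, counts scaled to the TMM-adjusted size of each library, and a gene is called where edgeR's quasi-likelihood test gave an adjusted p (Benjamini-Hochberg over all genes) under 0.05. Srrt stood at 33.8, 64.8 and 33.5 CPM in Ars2 KO and 244 and 131 CPM in WT at day 1, without overlap, a difference of -2.09 on the log2 scale (SE 0.23, adjusted p = 1.9e-05). Its day 3 levels were 108, 146 and 106 CPM in Ars2 KO and 245 and 145 CPM in WT, a difference of -0.71 (SE 0.23, adjusted p = 0.042), and here the groups overlapped, since number 2 of Ars2 KO lay just above the lower WT library. Both unstimulated libraries had at least 1145 CPM of Xist, the X-inactivation transcript. Xist was at most 0.8 CPM in stimulated WT and at most 0.7 CPM in DKI, and the other groups held libraries of both kinds. The Y-linked Ddx3y was at 0.0 CPM in unstimulated WT and at 73.9 to 88.6 CPM in stimulated WT. By these 2 transcripts, sex and stimulation cannot be told apart in WT. Stimulated libraries also had lower sums of B cell, myeloid and dendritic markers than unstimulated WT, such as 7.0 to 19.2 CPM over 8 B cell markers in WT at day 1 against 792 to 798 CPM at day 0. The sum of 6 natural killer cell markers was 89.4 to 110.3 CPM in WT at day 1 and 97.3 to 114.9 CPM at day 0. Of these markers, Klrb1c went from 40.7 and 37.7 CPM at day 0 to 1.33 and 2.12 CPM at day 1. Ncr1 went from 16.8 and 12.6 CPM to 0.252 and 0.922 CPM, so the sum does not show how single markers moved. The part of these cell types, and of sex, in the differences from day 0 was not tested. Sex by these transcripts was also unbalanced between stimulated WT or DKI and the groups that held libraries of both kinds. Its part in the differences between those genotypes was not tested either.

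In stimulated WT cells 5 of the 10 receptor genes were higher than in unstimulated WT and others were lower, a comparison in which sex also differed. At day 1, 8 of 10 were called (5 higher and 3 lower), beside 51.3% of all genes tested. At day 3, 9 of 10 were called (5 higher and 4 lower), beside 50.5% of all genes. Cd28, Ctla4, Icos, Lag3 and Tigit rose on both days, and Cd160 and Cd5 fell on both. Lag3 changed most at day 1, and Tigit at day 3. Lag3 stood at 2.83 and 2.62 CPM at day 0, 33.1 and 67.0 CPM at day 1, and 13.2 and 33.6 CPM at day 3. The log2 fold changes of Lag3 over day 0 were 4.18 (SE 0.43) and 3.06 (SE 0.42). Tigit stood at 1.15 and 1.13 CPM at day 0, 7.10 and 9.31 CPM at day 1, and 10.9 and 15.7 CPM at day 3. Its log2 fold changes were 2.83 (SE 0.36) and 3.52 (SE 0.36), so both WT libraries of either day lay above both at day 0.

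The genes lower in stimulated than in unstimulated WT included Cd160, Havcr2, Pdcd1 and Btla, each called on at least 1 of the days. Cd160 stood at 31.0 and 34.4 CPM at day 0, 12.0 and 11.2 CPM at day 1, and 13.2 and 11.5 CPM at day 3. Havcr2 stood at 9.44 and 9.04 CPM at day 0 and at 1.19 and 2.03 CPM at day 1, and the difference passed (log2 fold change -2.60, SE 0.77, adjusted p = 0.0067). At day 3 Havcr2 had 2.06 and 3.96 CPM, which did not pass (-1.68, SE 0.73, adjusted p = 0.058). Pdcd1 stood at 13.9 and 12.98 CPM at day 0, 7.93 and 10.9 CPM at day 1, and 4.30 and 8.97 CPM at day 3, and passed at day 3 alone (log2 fold change -1.07, SE 0.32, adjusted p = 0.0073). Without WT number 1 of day 3 the Pdcd1 value was -0.58 (SE 0.37, adjusted p = 0.22). Btla, with 199 and 192 CPM at day 0 and 111 and 107 CPM at day 3, passed at day 3 (-0.84, SE 0.27, adjusted p = 0.012), with adjusted p of 0.05 to 0.061 without WT number 1 of day 0 or either WT library of day 3. Without WT number 1 of day 1 the Havcr2 value was -2.23 (adjusted p = 0.089), and without WT number 4 of day 3 that of Icos was 0.35 (adjusted p = 0.1).

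Per kb of exon, the order of the receptor genes changed with time in WT. Unstimulated WT held most of Btla (57.6 CPM per kb), Cd5 (41.3) and Cd28 (31.4), and least of Lag3 (1.29) and Tigit (1.24). At day 1 Cd28 led with 65.2 CPM per kb, followed by Icos with 49.2, Btla with 37.1 and Ctla4 with 30.7. At day 3 Ctla4 and Cd28 led side by side with 87.6 and 86.7 CPM per kb, ahead of Btla with 32.1, and Pdcd1 (3.44) and Havcr2 (1.11) were lowest. In libraries labelled CD28 KO, Ctla4 stood at 6.07 CPM per kb at day 1, below 4 other members, and at 4.57 CPM per kb at day 3, below 6 others.

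**Figure D1:**
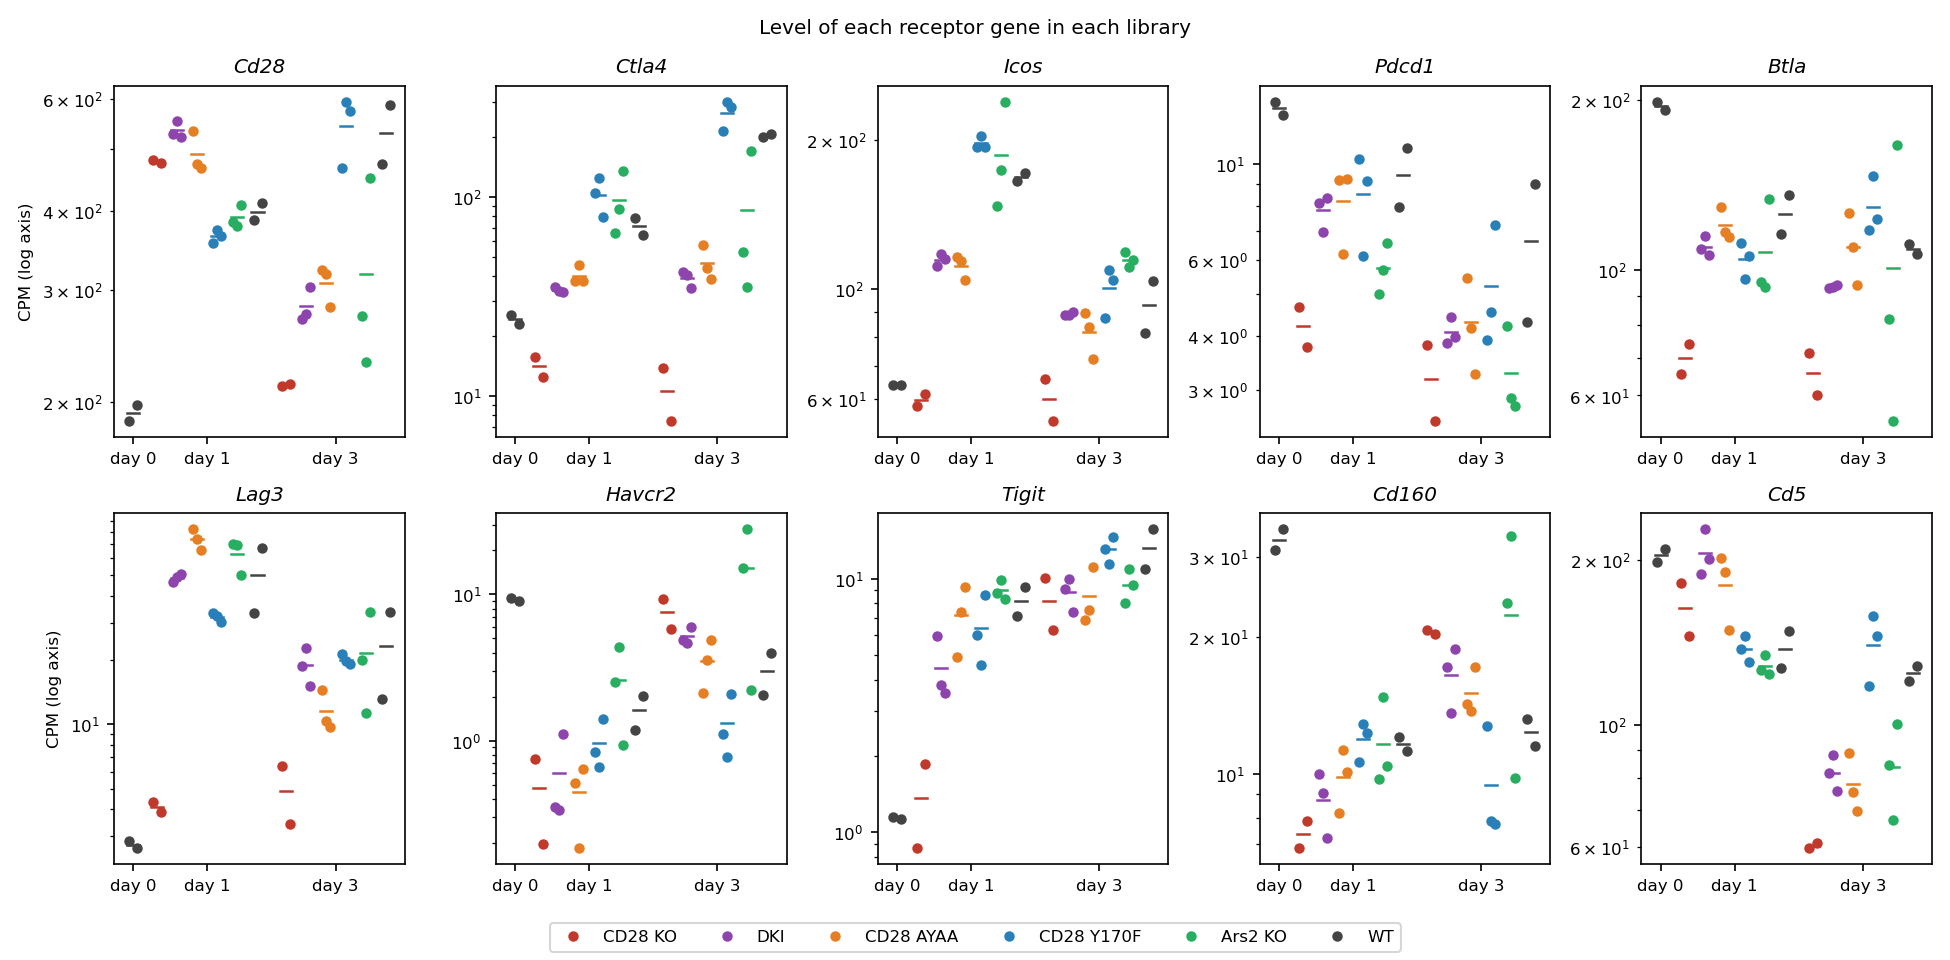
Level of each of the 10 genes in each of the 34 libraries, in CPM on a log axis, at days 0, 1 and 3. Each point is 1 library, lines are group means, and genotypes run from CD28 KO on the left to WT on the right. Ctla4 is lowest in libraries labelled CD28 KO on both days, and CD28 Y170F lies beside WT.

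Cd28 itself (chromosome 1, 60716800 to 60773359, 6122 bases of exon) was higher than in unstimulated WT in every genotype at day 1 and was lower than WT in 4 of 5 genotypes at day 3. At day 1 its level was 482 and 476 CPM in libraries labelled CD28 KO, 530, 554 and 524 CPM in DKI, 534, 474 and 468 CPM in CD28 AYAA, 356, 374 and 365 CPM in CD28 Y170F, 384, 379 and 409 CPM in Ars2 KO, and 387 and 411 CPM in WT. All day 1 libraries lay above the 187 and 198 CPM of unstimulated WT, and no genotype passed against WT at day 1 in edgeR. DKI was at 0.43 (SE 0.16, adjusted p = 0.053), and 4 of 7 fits called it higher (adjusted p of 0.0038 to 0.053 over the 7). Set against WT number 4 alone, an adjusted p of 0.31 went with a value of 0.38 in DKI. The gene-level count covers every exon, so a level like that of WT does not check the CD28 KO label. At day 3 the level was 212 and 214 CPM in libraries labelled CD28 KO, 270, 276 and 304 CPM in DKI, 323, 318 and 283 CPM in CD28 AYAA, 468, 594 and 574 CPM in CD28 Y170F, 274, 232 and 451 CPM in Ars2 KO, and 474 and 587 CPM in WT. CD28 KO, DKI, CD28 AYAA and Ars2 KO lay below WT without overlap, while CD28 Y170F overlapped WT.

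Against WT at day 3, the log2 fold change of Cd28 was -1.32 in libraries labelled CD28 KO (SE 0.18, adjusted p = 1.6e-05), -0.91 in DKI (SE 0.16, adjusted p = 0.00019), -0.78 in CD28 AYAA (SE 0.16, adjusted p = 0.00091), with Ars2 KO at -0.74 (SE 0.16, adjusted p = 0.0032). Against WT number 1 alone, which has the depth of the AYAA and Ars2 KO libraries, CD28 AYAA was at -0.62 (adjusted p = 0.052) and Ars2 KO at -0.57 (adjusted p = 0.1). The log2 fold change of Cd28 over WT changed between days 1 and 3 by -1.58 in libraries labelled CD28 KO, -1.33 in DKI and -1.09 in CD28 AYAA (test of the difference between days, adjusted p = 3.1e-05, 0.0001 and 0.0013). Between its own days, Cd28 was lower at day 3 than at day 1 in CD28 KO (log2 fold change -1.17), DKI (-0.92) and CD28 AYAA (-0.68) and higher in CD28 Y170F (0.58), and in WT the value was 0.41 (SE 0.18, adjusted p = 0.08).

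Cd4, the marker of CD4 T cells, also differed between these day 3 libraries. Cd4 stood at 40.0 and 46.2 CPM in libraries labelled CD28 KO, 64.8 to 72.3 CPM in DKI, 47.6 to 97.0 CPM in CD28 AYAA, 110 to 167 CPM in CD28 Y170F, 61.6 to 212 CPM in Ars2 KO, and 111 and 140 CPM in WT. Cd4 was called lower than WT in CD28 KO (log2 fold change -1.54, adjusted p = 0.002) and DKI (-0.89, adjusted p = 0.032), and was at -0.79 in CD28 AYAA (adjusted p = 0.057). The summed level of Cd8a and Cd8b1 over that of Cd4 was 21.1 and 16.3 in libraries labelled CD28 KO, 14.4 to 14.8 in DKI, 10.7 to 18.9 in CD28 AYAA, 6.56 to 8.64 in CD28 Y170F, 2.41 to 11.2 in Ars2 KO, and 7.98 and 6.14 in WT. In these bulk samples, fewer cells of a type and less RNA per cell cannot be told apart. Foxp3, a regulatory T cell marker, stood at day 3 at 8.37 and 11.8 CPM in CD28 KO, 8.92 to 13.4 CPM in Ars2 KO and 4.86 and 6.16 CPM in WT. It ranged over 3.95 to 8.71 CPM in the other genotypes. At day 1 the ratio of Cd8a and Cd8b1 to Cd4 was 2.07 and 3.01 in CD28 KO and 4.33 and 3.29 in WT. The sum of 8 B cell markers was then 61.2 to 87.1 CPM in CD28 KO and 7.0 to 19.2 CPM in WT. The part of these shifts in the receptor levels was not tested.

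**Figure D2:**
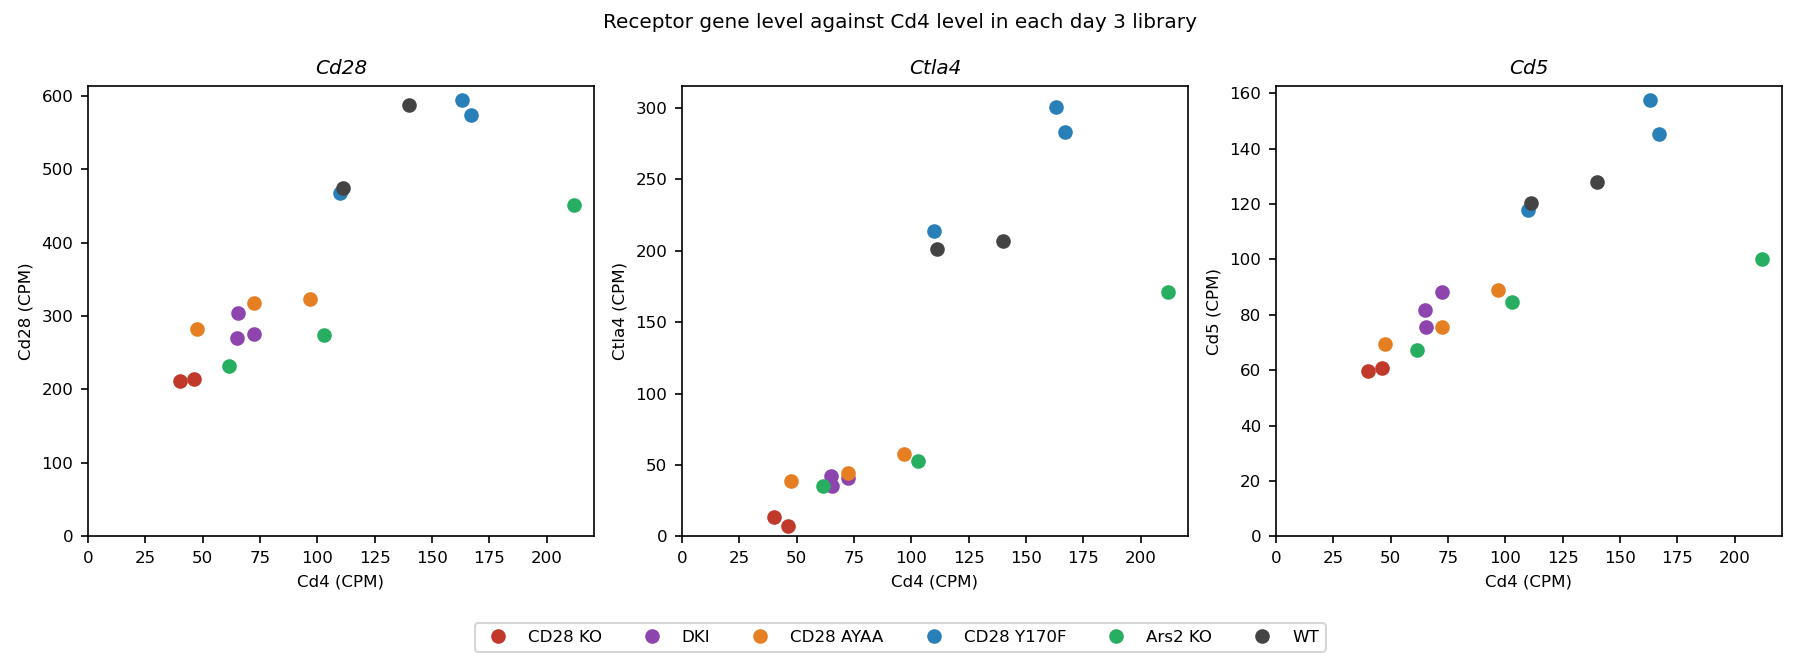
Level of Cd28, Ctla4 and Cd5 (vertical axes, CPM) against the level of Cd4 (horizontal axes, CPM) in the 16 day 3 libraries, 1 point per library, coloured by genotype. Libraries labelled CD28 KO lie at 40.0 and 46.2 CPM of Cd4 and are lowest for all 3 genes, and number 3 of Ars2 KO lies apart at 212 CPM of Cd4.

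Icos (chromosome 1, 60977927 to 61000320), the inducible relative of CD28, peaked at day 1 in WT and was lower at that time in CD28 KO, DKI and CD28 AYAA than in WT. At day 1 it stood at 58.1 and 61.4 CPM in libraries labelled CD28 KO, 111, 118 and 115 CPM in DKI, 116, 114 and 104 CPM in CD28 AYAA, 194, 204 and 194 CPM in CD28 Y170F, 148, 174 and 239 CPM in Ars2 KO, and 166 and 172 CPM in WT. Libraries labelled CD28 KO were near the 64.1 and 64.1 CPM of unstimulated WT, with DKI and CD28 AYAA between them and WT of the same day. The log2 fold changes against WT were -1.50 in CD28 KO (SE 0.15, adjusted p = 4.4e-08), -0.56 in DKI (SE 0.13, adjusted p = 0.004) and -0.60 in CD28 AYAA (SE 0.13, adjusted p = 0.017). Icos was the single receptor gene called in CD28 AYAA at day 1, beside 3.6% of all genes called and 1.99% called lower, and in CD28 KO and CD28 AYAA it also passed against WT number 1 alone. In DKI, set against WT number 4 alone at day 1, it was at -0.58 (adjusted p = 0.042) in the fit without WT number 1 on both days, and at -0.54 (adjusted p = 0.081) in the fit without that library at day 1. Without WT number 1 of day 1 the value was -0.61 in CD28 AYAA (adjusted p = 0.17), and without number 1 or number 2 of CD28 AYAA the adjusted p was 0.055 or 0.053.

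At day 3 Icos had come down in WT to 81.8 and 104 CPM, and the genotypes were closer together. It stood at 65.8 and 54.2 CPM in libraries labelled CD28 KO (log2 fold change -0.63 against WT, SE 0.15, adjusted p = 0.0041), and against WT number 1 alone the value was -0.45 (adjusted p = 0.099). Without 1 of the CD28 KO libraries it was -0.49 (adjusted p = 0.087). DKI, CD28 AYAA, CD28 Y170F and Ars2 KO ranged over 72.4 to 119 CPM and none passed. Icos fell between days 1 and 3 in all groups but CD28 KO, where the log2 fold change was 0.01 (SE 0.15). The difference from WT shrank between the days in CD28 KO (change of the log2 fold change 0.87, adjusted p = 0.002). TEC transcript Gm37039 lies within the span of Icos on the same strand, with 2.2 to 20.8 CPM.

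Ctla4 (chromosome 1, 60887000 to 60915832), whose product opposes CD28, had the largest fall of the 10 genes at day 3 in CD28 KO, DKI, CD28 AYAA and Ars2 KO. At day 1 it stood at 15.8 and 12.5 CPM in libraries labelled CD28 KO, 35.4, 33.7 and 33.5 CPM in DKI, 38.0, 45.4 and 37.7 CPM in CD28 AYAA, 105, 124 and 79.6 CPM in CD28 Y170F, 66.3, 87.3 and 135 CPM in Ars2 KO, and 78.6 and 64.2 CPM in WT. CD28 KO libraries lay below even the 25.6 and 23.1 CPM of unstimulated WT, and DKI and CD28 AYAA lay between unstimulated and stimulated WT. At day 3 it stood at 13.8 and 7.50 CPM in libraries labelled CD28 KO, 42.3, 40.6 and 35.1 CPM in DKI, 57.6, 44.1 and 38.6 CPM in CD28 AYAA, 214, 301 and 283 CPM in CD28 Y170F, 52.8, 35.5 and 171 CPM in Ars2 KO, and 202 and 207 CPM in WT. Every CD28 Y170F library was above both WT libraries and every library of CD28 KO, DKI, CD28 AYAA and Ars2 KO was below them.

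The log2 fold change of Ctla4 against WT at day 3 was -4.26 in libraries labelled CD28 KO (SE 0.49, adjusted p = 2.4e-06), -2.38 in DKI (SE 0.39, adjusted p = 0.0001) and -2.13 in CD28 AYAA (SE 0.38, adjusted p = 0.00032). In CD28 Y170F it was 0.38 with a 95% interval of -0.38 to 1.14 (adjusted p = 0.92). Ars2 KO was at -1.24 (SE 0.38, adjusted p = 0.031), and without its number 3 at -2.21 (SE 0.28, adjusted p = 9.4e-06). At day 1 the value was -2.34 in CD28 KO (SE 0.46, adjusted p = 0.0002) and -1.06 in DKI (SE 0.39, adjusted p = 0.047), and DKI did not pass against the WT library of its own depth (-0.91, adjusted p = 0.32) or with any 1 library of the comparison left out (adjusted p of 0.063 to 0.35). CD28 AYAA was at -0.83 at day 1 (SE 0.39, adjusted p = 0.2). WT and CD28 Y170F raised Ctla4 between days 1 and 3, with log2 fold changes of 1.51 (SE 0.43) and 1.37 (SE 0.35), while the values in CD28 KO, DKI, CD28 AYAA and Ars2 KO were -0.40, 0.20, 0.21 and -0.16 and did not pass.

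The promoter of Ctla4 is shown because this gene fell most at day 3, as 250 bases before and 50 after the annotated start in RefSeq (GRCm38.p6, + strand, chr1:60908775-60909074). Capitals mark a match to GGAAA, the core of NFAT sites, read on the other strand.
Ctla4 promoter: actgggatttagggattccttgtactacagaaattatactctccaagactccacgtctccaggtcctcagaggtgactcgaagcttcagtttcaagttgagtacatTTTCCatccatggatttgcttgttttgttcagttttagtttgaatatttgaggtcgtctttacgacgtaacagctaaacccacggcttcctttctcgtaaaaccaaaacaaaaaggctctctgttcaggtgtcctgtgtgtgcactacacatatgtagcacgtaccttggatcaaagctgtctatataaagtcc
Both strands were searched for GGAAA and for TGANTCA, the site of AP-1. Ctla4 held 1 GGAAA and 0 TGANTCA, so no matches overlapped there. Of all 32851 promoters of this length in the table, 61.3% held GGAAA and 7.8% held TGANTCA. Promoters of 7 members were in the table, and Havcr2 was the member with a TGANTCA match.

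Lag3 (chromosome 6, 124904361 to 124911705) and Tigit (chromosome 16, 43648867 to 43664146) did not pass over unstimulated WT at day 1 in libraries labelled CD28 KO, and both were lower there than in stimulated WT. Lag3 stood there at 4.31 and 3.87 CPM, against 46.3, 48.9 and 50.7 CPM in DKI, 82.0, 73.8 and 66.0 CPM in CD28 AYAA, 33.1, 32.1 and 30.2 CPM in CD28 Y170F, 70.2, 68.9 and 50.0 CPM in Ars2 KO, and 33.1 and 67.0 CPM in WT. Only the CD28 KO libraries lay far below the others, and the spread between the 2 WT libraries covered those of DKI. The log2 fold change of Lag3 against WT was -3.60 in CD28 KO (SE 0.43, adjusted p = 4.7e-07), and no other genotype passed at day 1. Tigit stood at 0.863 and 1.86 CPM in libraries labelled CD28 KO and at 7.10 and 9.31 CPM in WT (log2 fold change -2.55, SE 0.38, adjusted p = 7.8e-06). In DKI it stood at 5.92, 3.81 and 3.56 CPM (-0.86, SE 0.32, adjusted p = 0.046), which did not pass against WT number 4 alone (-1.06, adjusted p = 0.13). Leaving out number 2 or 3 of DKI or either WT library gave adjusted p of 0.13 to 0.2.

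At day 3 these genes parted. Tigit reached 10.1 and 6.27 CPM in libraries labelled CD28 KO, against 10.9 and 15.7 CPM in WT, and no genotype passed (-0.68 in CD28 KO, SE 0.32, adjusted p = 0.14). Its difference from WT shrank between the days in CD28 KO (change of the log2 fold change 1.87, adjusted p = 0.0041). Lag3 stayed at 6.36 and 3.40 CPM in libraries labelled CD28 KO, against 13.2 and 33.6 CPM in WT (log2 fold change -2.21, SE 0.41, adjusted p = 0.00048). Against WT number 1 alone Lag3 was at -1.43 in CD28 KO (adjusted p = 0.017). In CD28 AYAA, Lag3 had 14.5, 10.3 and 9.76 CPM, at -0.99 against WT (SE 0.35, adjusted p = 0.045), and at -0.20 against WT number 1 alone (adjusted p = 0.82). Without number 2 or 3 of CD28 AYAA it was -0.91 (adjusted p = 0.12) or -0.88 (adjusted p = 0.13). At day 3, 1 of the 3 CD28 AYAA libraries lay above the lower WT library, so these groups overlapped.

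Pdcd1 (chromosome 1, 94038305 to 94052553), which encodes PD-1, and Btla (chromosome 16, 45224315 to 45257670) were highest before stimulation and were lower than WT at day 1 in libraries labelled CD28 KO. At day 1 Pdcd1 stood at 4.66 and 3.77 CPM in CD28 KO and 7.93 and 10.9 CPM in WT (log2 fold change -1.14, SE 0.33, adjusted p = 0.0067). The day 3 levels of Pdcd1 were 3.81 and 2.54 CPM in CD28 KO and 4.30 and 8.97 CPM in WT (-1.01, SE 0.34, adjusted p = 0.036), and against WT number 1 alone at -0.43 (adjusted p = 0.49). In DKI, Pdcd1 stood at 3.85, 4.43 and 3.98 CPM at day 3, at -0.65 against both WT libraries (SE 0.32, adjusted p = 0.15) and at -1.13 against WT number 4 alone (adjusted p = 0.025). In Ars2 KO at day 3 Pdcd1 was at 4.21, 2.86 and 2.75 CPM (-0.96, SE 0.30, adjusted p = 0.037). Btla stood at 65.5 and 74.1 CPM in CD28 KO and 116 and 136 CPM in WT at day 1 (-0.85, SE 0.28, adjusted p = 0.014), and against WT number 1 alone at -0.73 (adjusted p = 0.085). Without 1 of the CD28 KO libraries, Pdcd1 was at -1.0 (adjusted p = 0.068) at day 1 and -0.75 (adjusted p = 0.26) at day 3, and Btla at -0.76 (adjusted p = 0.1) at day 1. At day 3 Btla stood at 71.4 and 60.01 CPM in CD28 KO and 111 and 107 CPM in WT (-0.73, SE 0.27, adjusted p = 0.06). In Ars2 KO at day 3, Btla stood at 81.9, 54.1 and 167 CPM, from below to above WT.

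Havcr2 (chromosome 11, 46454935 to 46481255), the TIM-3 gene, and Cd160 (chromosome 3, 96798763 to 96829351) had higher mean levels at day 3 in CD28 KO, DKI, CD28 AYAA and Ars2 KO than in WT, and among these Havcr2 in Ars2 KO alone passed. Havcr2 stood at 9.23 and 5.82 CPM in libraries labelled CD28 KO, 4.86, 4.62 and 6.01 CPM in DKI, 2.10, 3.53 and 4.90 CPM in CD28 AYAA, 1.10, 0.778 and 2.08 CPM in CD28 Y170F, 15.2, 27.8 and 2.21 CPM in Ars2 KO, and 2.06 and 3.96 CPM in WT. CD28 KO and DKI lay above WT, with log2 fold changes of 1.39 (SE 0.74, adjusted p = 0.2) and 0.84 (SE 0.71, adjusted p = 0.44) that did not pass. Ars2 KO passed at 2.39 (SE 0.71, adjusted p = 0.026), with number 3 inside the WT range and a value of 2.91 without it (SE 0.56, adjusted p = 0.00069). Between days 1 and 3, Havcr2 rose in CD28 KO (log2 fold change 4.03, SE 0.90), DKI (3.13, SE 0.82), CD28 AYAA (2.98, SE 0.73) and Ars2 KO (2.51, SE 0.58), and the values were 0.43 (SE 0.71) in CD28 Y170F and 0.92 (SE 0.83) in WT.

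Cd160 stood at day 3 at 20.7 and 20.2 CPM in libraries labelled CD28 KO, 17.1, 13.6 and 18.8 CPM in DKI, 14.2, 13.7 and 17.1 CPM in CD28 AYAA, 12.7, 7.87 and 7.75 CPM in CD28 Y170F, 23.7, 33.3 and 9.76 CPM in Ars2 KO, and 13.2 and 11.5 CPM in WT. CD28 KO, DKI and CD28 AYAA lay above WT without overlap, but none passed (0.72, 0.41 and 0.28 on the log2 scale). Its difference from WT changed between the days in CD28 KO (change of the log2 fold change 1.38, adjusted p = 0.024), and against WT number 1 alone of each day the change was 1.34 (adjusted p = 0.095). Natural killer cells also express both genes, and the summed level of 6 natural killer cell markers at day 3 was 333 to 419 CPM in libraries labelled CD28 KO, 282 to 313 CPM in DKI, 271 to 400 CPM in CD28 AYAA, 63.4 to 135 CPM in CD28 Y170F, 144 to 336 CPM in Ars2 KO, and 76.0 to 139 CPM in WT, with all 6 markers counted in each group. Counted means that a marker had counts, not that it was abundant. Of the 6, Klrb1c stood at 13.9 and 15.6 CPM in libraries labelled CD28 KO and 3.05 to 3.96 CPM in DKI. Ncr1 stood at 0.395 and 2.13 CPM in CD28 KO and 0.74 to 1.6 CPM in DKI. In these genotypes most of the sum thus came from other markers, and it does not give the level of Klrb1c or Ncr1. Each was still higher there than in WT of day 3, which had 1.2 and 0.522 CPM of Klrb1c and 0.0861 and 0.104 CPM of Ncr1. Klrb1c stood at 3.7 to 13.1 CPM in CD28 AYAA, 6.34, 10.5 and 1.79 CPM in Ars2 KO and 0.412 to 0.662 CPM in CD28 Y170F. Ncr1 stood at 0.229 to 0.456 CPM, 1.99, 0.229 and 0.114 CPM, and 0.0 to 0.0945 CPM in the same order. The part of natural killer cells in the Havcr2 and Cd160 levels was not tested.

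Cd5 (chromosome 19, 10717116 to 10739002) was lower than WT at day 3 in the same 4 genotypes as Cd28. It stood at 59.6 and 60.9 CPM in libraries labelled CD28 KO, 81.8, 88.0 and 75.7 CPM in DKI, 88.9, 75.4 and 69.6 CPM in CD28 AYAA, 118, 158 and 145 CPM in CD28 Y170F, 84.6, 67.2 and 100 CPM in Ars2 KO, and 120 and 128 CPM in WT. CD28 KO, DKI, CD28 AYAA and Ars2 KO lay below WT without overlap. The log2 fold changes were -1.04 in CD28 KO (SE 0.16, adjusted p = 7.9e-05), -0.60 in DKI (SE 0.15, adjusted p = 0.0038), -0.67 in CD28 AYAA (SE 0.15, adjusted p = 0.0017), with Ars2 KO at -0.56 (SE 0.15, adjusted p = 0.011). At day 1 Cd5 was higher in DKI than in WT, with 189, 227 and 201 CPM in DKI against 127 and 148 CPM in WT (0.58, SE 0.15, adjusted p = 0.0061), a call that did not hold against WT number 4 alone (0.47, adjusted p = 0.17). The difference from WT changed between the days by -1.29 in CD28 KO, -1.18 in DKI and -1.06 in CD28 AYAA (adjusted p = 9.9e-05, 0.00014 and 0.00074).

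**Figure D3:**
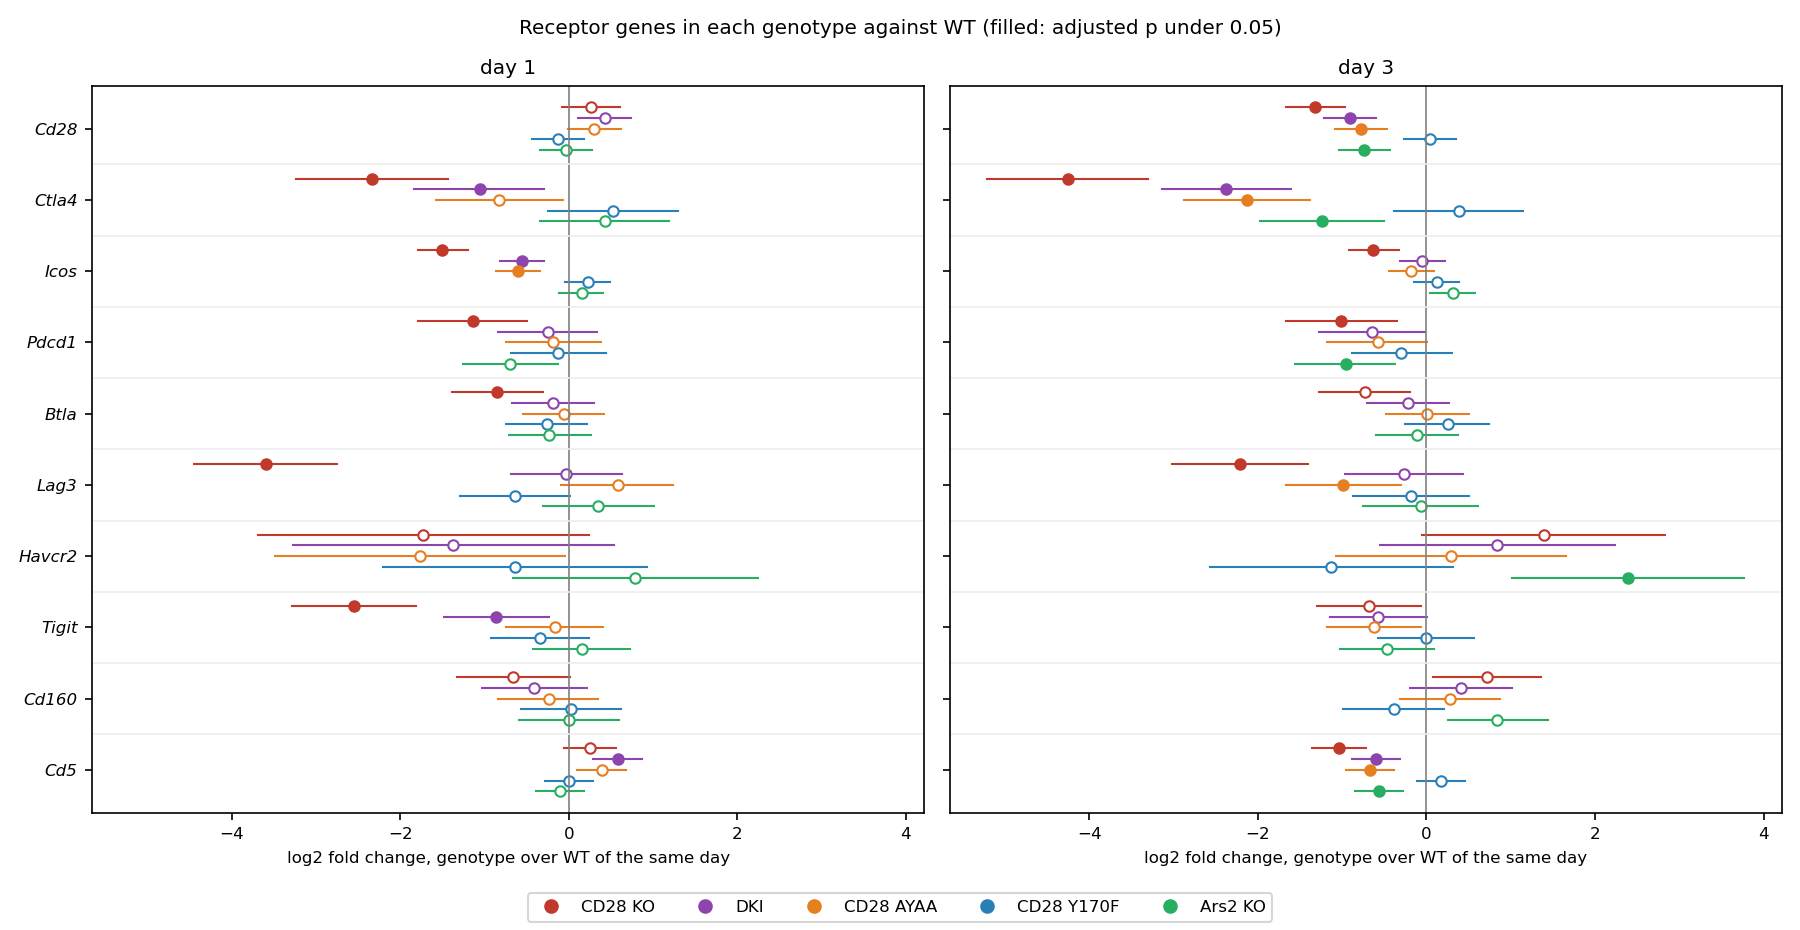
Log2 fold change of each of the 10 genes in each genotype over WT of the same day (horizontal axis), with 95% intervals, at day 1 on the left and day 3 on the right. Filled points have an adjusted p under 0.05. Ctla4 lies at -4.26 in libraries labelled CD28 KO at day 3, and no point of CD28 Y170F is filled on either day.

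Counted over the 10 genes at day 1 against WT, 6 fell and 0 rose in libraries labelled CD28 KO (beside 43.3% of all genes called, and 24.7% called lower), 1 rose and 3 fell in DKI (26.0%), and 1 fell in CD28 AYAA (3.6%, and 1.99% lower). At day 3, 6 fell and 0 rose in CD28 KO (20.0%, and 11.5% lower), 3 fell in DKI (23.4%, and 13.1% lower), 4 fell in CD28 AYAA (21.7%, and 11.3% lower), and 1 rose and 4 fell in Ars2 KO (12.9%). The median log2 fold change of the 10 genes at day 3 was -0.87 in CD28 KO, -0.42 in DKI, -0.60 in CD28 AYAA, 0.02 in CD28 Y170F and -0.29 in Ars2 KO, with medians of all genes between -0.02 and 0.02. In CD28 Y170F, edgeR's quasi-likelihood test called 0 of the 10 genes at day 1 (0.0547% of all genes) and 0 at day 3 (0.0273%), with 0 at an unadjusted p under 0.05 and 0 by DESeq2 and limma-voom on either day. In Ars2 KO at day 1 it called 0 (0.399%), with 1 at an unadjusted p under 0.05, Pdcd1, and 0 by DESeq2 and by limma-voom. The 95% intervals in CD28 Y170F ran from -0.27 to 0.35 for Cd28 and from -0.15 to 0.38 for Icos at day 3.

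The difference from WT itself changed between the days in 6 of the 10 genes in CD28 KO (beside 35.3% of all genes), 3 in DKI (32.4%) and 3 in CD28 AYAA (24.4%, and 12.1% lower). Cd28 and Cd5 were among them in all 3 genotypes. The counts in DKI and CD28 AYAA were near the shares of all genes and are no result about the 10 genes as a set. With the replicate number as a block, Ctla4 (-1.32, adjusted p = 0.017) and Havcr2 (2.10, adjusted p = 0.017) also passed in CD28 AYAA. That fit paired the WT libraries by number too. In Ars2 KO 0 were called by edgeR (3.68%), while 3 had an unadjusted p under 0.05 (Cd28, Ctla4 and Cd5) and DESeq2 and limma-voom called 1 each. In CD28 Y170F the count was 0 (0.0%), also at an unadjusted p under 0.05 and by both other tools.

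Set against WT number 1 alone at day 3, 0 of the 5 Ars2 KO calls passed, with values of -0.57 for Cd28, -1.22 for Ctla4, -0.39 for Pdcd1, 2.86 for Havcr2 and -0.52 for Cd5. Leaving out number 2 of Ars2 KO ended the calls of Ctla4 (-0.87, adjusted p = 0.13), Havcr2 (1.60, adjusted p = 0.16), Pdcd1 (-0.87, adjusted p = 0.12) and Cd5 (-0.43, adjusted p = 0.071). Leaving out number 1 did so for Ctla4 (-0.99, adjusted p = 0.13) and Havcr2 (2.38, adjusted p = 0.052), as did leaving out WT number 1 (-1.26, adjusted p = 0.086, and 1.93, adjusted p = 0.19). Without number 3 of Ars2 KO, Btla (log2 fold change -0.68, SE 0.17, adjusted p = 0.0053) and Cd160 (1.2, SE 0.23, adjusted p = 0.00058) also passed, while Pdcd1 was at -0.85 (SE 0.34, adjusted p = 0.078). Number 3 had 212 CPM of Cd4 and a ratio of Cd8a and Cd8b1 to Cd4 of 2.41, against 103 and 61.6 CPM and ratios of 7.48 and 11.2 in the other 2 libraries, with Srrt at 106 CPM against 108 and 146 CPM.

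Against unstimulated WT, libraries labelled CD28 KO had 1 of the 5 genes raised in stimulated WT called higher on each day. At day 1 Cd28 alone was higher (log2 fold change 1.32, SE 0.18), and Ctla4 (-0.79), Icos (-0.10), Lag3 (0.58) and Tigit (0.28) did not pass, with 5 of 10 genes called beside 52.2% of all genes. At day 3 Tigit alone was higher (2.84, SE 0.35) and Ctla4 was lower (-1.19, SE 0.45, adjusted p = 0.028), with 5 called beside 52.1%. In DKI, Cd28, Icos, Lag3 and Tigit were higher on both days (8 of 10 called beside 49.1% at day 1 and 58.1% at day 3), and Ctla4 was at 0.49 and 0.69 and did not pass. In CD28 AYAA the same 4 were higher at day 1 (8 called beside 50.0%) and Ctla4 joined them at day 3 with 0.94 (SE 0.40, adjusted p = 0.046), when 9 were called beside 60.2%. All 5 were higher on both days in CD28 Y170F (10 called on each day, beside 54.7% and 53.8%) and in Ars2 KO (10 called beside 53.6%, then 8 beside 56.8%). These comparisons share the 2 unstimulated libraries, both high in Xist, unlike those of DKI.

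Between their own days, WT raised Ctla4 and lowered Icos and Lag3 (3 called beside 29.5% of all genes, with Ctla4 at 1.38 (adjusted p = 0.078) without WT number 4 of day 1 and Lag3 at -0.54 without it and -0.56 without WT number 1 of day 3), and CD28 Y170F raised Cd28, Ctla4 and Tigit and lowered Icos and Pdcd1 (5 beside 40.3%). Libraries labelled CD28 KO raised Havcr2, Tigit and Cd160 and lowered Cd28 and Cd5 (5 beside 45.6%). DKI raised the same 3 and lowered Cd28, Icos, Pdcd1, Lag3 and Cd5 (8 beside 47.5%). CD28 AYAA raised Havcr2 and lowered the same 5 genes as DKI (6 beside 45.4%), Lag3 most of all with a log2 fold change of -2.68 (SE 0.32). Cd160 in CD28 AYAA was at 0.61 (SE 0.27, adjusted p = 0.065), and passed with the replicate number as a block (0.61, SE 0.22, adjusted p = 0.033). Ars2 KO raised Havcr2 and Cd160 and lowered Icos, Pdcd1, Lag3 and Cd5 (6 beside 23.6%).

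The alleles were also set against each other. CD28 AYAA was higher than CD28 KO at day 1 in 6 of the 10 genes (beside 27.4% of all genes called and 18.6% called higher), with log2 fold changes of 4.18 for Lag3 (SE 0.42), 2.37 for Tigit, 1.51 for Ctla4, 0.96 for Pdcd1, 0.90 for Icos and 0.78 for Btla. At day 3 Ctla4 alone was higher (2.13, SE 0.43, adjusted p = 0.013, beside 1.03% called and 0.497% called higher). DKI was higher than CD28 KO in Lag3 (3.57, SE 0.42), Tigit (1.69) and Icos (0.94) at day 1 (beside 9.04% called and 6.3% called higher), and in Lag3 (1.95, SE 0.39, adjusted p = 0.017) and Ctla4 (1.88, SE 0.43, adjusted p = 0.046) at day 3 (beside 0.454% and 0.219%). All DKI libraries were shallow (8.3 to 10.6 M counts) and all CD28 KO libraries deeper (at least 15.7 M), so genotype and depth cannot be told apart here. Between WT number 4, of the DKI depth, and number 1, Lag3 was at 67.0 and 33.1 CPM at day 1 and 33.6 and 13.2 CPM at day 3. At day 3, leaving out either CD28 KO library took the Ctla4 calls below the threshold, with values of 2.39 and 1.51 in DKI and 2.65 and 1.76 in CD28 AYAA. The DKI call of Ctla4 was also lost without any 1 DKI library (1.82 to 1.95), and that of Lag3 without 1 of the CD28 KO libraries (1.57, adjusted p = 0.45) or number 2 of DKI (1.79, adjusted p = 0.094). At day 1, the calls of Ctla4, Pdcd1 and Btla in CD28 AYAA over CD28 KO were lost without either CD28 KO library, and that of Tigit in DKI without number 1 of CD28 KO (1.26, adjusted p = 0.17).

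DKI and CD28 AYAA were not told apart in any of the 10 genes by edgeR, DESeq2 or limma-voom on either day (2.51% and 0.0437% of all genes called by edgeR). On each day 1 gene had an unadjusted p under 0.05, Tigit at day 1 (-0.68, SE 0.29) and Lag3 at day 3 (0.72, SE 0.32). For Ctla4 the difference of DKI from CD28 AYAA was -0.24 (SE 0.36) at day 1 and -0.25 (SE 0.36) at day 3. Depth also differed between these genotypes, since all DKI libraries were shallower than those of CD28 AYAA. CD28 AYAA and CD28 Y170F differed at day 3 in Ctla4 (-2.51, SE 0.36, adjusted p = 9.8e-06), Cd5 (-0.85, SE 0.13, adjusted p = 2.2e-05), Cd28 (-0.82, SE 0.14, adjusted p = 8e-05) and Lag3 (-0.80, SE 0.31, adjusted p = 0.046), beside 36.8% of all genes called and 19.2% called lower. At day 1 they differed in Icos (-0.82, SE 0.12, adjusted p = 0.0002), Ctla4 (-1.35, SE 0.35, adjusted p = 0.03) and Lag3, which was higher in CD28 AYAA (1.22, SE 0.30, adjusted p = 0.024), beside 4.32% of all genes. With the replicate number as a block, Ctla4 at day 1 was at -1.33 (SE 0.38, adjusted p = 0.058). Ctla4 and Lag3 at day 1 and Lag3 at day 3 each lost the call in 5 of the 6 fits that left out 1 library of the pair, with log2 fold changes of -1.44 to -1.19, 1.14 to 1.25 and -0.84 to -0.70.

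The ligands of these receptors moved in both directions at day 3, and 11 of the 12 listed were tested. In libraries labelled CD28 KO, 3 rose and 3 fell, DKI had 3 higher and 3 lower, CD28 AYAA had 3 higher and 2 lower, and Ars2 KO had 3 higher and 1 lower. The shares of all genes called at day 3 were 20.0%, 23.4%, 21.7% and 12.9% in the same order. Cd274, Icosl and Pdcd1lg2, which encode PD-L1, ICOS ligand and PD-L2, rose in all 4 of these genotypes. Cd274 averaged 100.4 CPM in CD28 KO, 76.2 CPM in DKI, 64.9 CPM in CD28 AYAA and 65.8 CPM in Ars2 KO, against 36.7 CPM in WT. Icosl averaged 8.50 CPM in CD28 KO and 1.08 CPM in WT (log2 fold change 2.96, SE 0.50, adjusted p = 0.00018), against 42.4 CPM in unstimulated WT. Cd80, a ligand of CD28 and CTLA-4, averaged 0.593 CPM in CD28 AYAA and 4.23 CPM in WT (-2.76, SE 0.48, adjusted p = 0.00023), and fell in CD28 KO and DKI too. At day 1 Cd274 went the other way in CD28 KO, with 48.0 CPM against 147.9 CPM in WT (-1.62, SE 0.24, adjusted p = 6.9e-06). T cells and antigen-presenting cells both express several of these ligands. At day 3 the sum of 8 B cell markers was 7.78 to 35.4 CPM in CD28 KO, 6.38 to 7.87 CPM in DKI, 5.54 to 18.4 CPM in CD28 AYAA, 6.03 to 8.47 CPM in Ars2 KO and 10.3 to 15.2 CPM in WT, with Fcrla at 0 in DKI. Its part in the ligand levels was not tested.

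Among 22 signalling partners of the receptors, 0 were higher and 7 lower in CD28 KO at day 3, with 1 higher and 6 lower in DKI, 2 higher and 5 lower in CD28 AYAA, and 0 higher and 6 lower in Ars2 KO. These counts stand beside the same shares of all genes called (20.0%, 23.4%, 21.7% and 12.9%). Malt1, Cblb and Pik3r1 fell in all 4. Malt1, the paracaspase that links antigen receptor and CD28 signals to NF-kappaB, averaged 98.3 CPM in CD28 KO, 111.5 CPM in DKI, 122 CPM in CD28 AYAA and 147 CPM in Ars2 KO, against 220 CPM in WT. Pik3r1, the regulatory subunit of phosphoinositide 3-kinase, averaged 165 CPM in CD28 KO and 239 CPM in WT (log2 fold change -0.54, SE 0.10, adjusted p = 0.00051). At day 1 Pik3r1 was higher in CD28 KO than in WT, at 234 against 134 CPM (0.80, SE 0.10, adjusted p = 1e-06). The median of the list at day 3 lay between -0.13 and -0.08 in these 4 genotypes, with medians of all genes between -0.02 and 0.02.

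Of 13 related receptors, 2 were higher and 6 lower in CD28 KO at day 3, with 1 higher and 6 lower in DKI, 1 higher and 4 lower in CD28 AYAA, and 1 higher and 2 lower in Ars2 KO. Over all genes, the shares called in these 4 genotypes were 20.0%, 23.4%, 21.7% and 12.9%. Cd27 and Vsir, the VISTA gene, fell in all 4, and Cd244a, a receptor of natural killer cells and some CD8 T cells, rose in all 4. Cd27, a costimulatory receptor, averaged 97.7 CPM in CD28 AYAA and 180 CPM in WT (log2 fold change -0.88, SE 0.14, adjusted p = 0.00014). Cd6, a relative of CD5, averaged 79.2 CPM in CD28 KO and 137 CPM in WT (-0.79, SE 0.13, adjusted p = 0.00011). In CD28 Y170F, 0 ligands, 0 partners and 0 related receptors passed in edgeR on either day, and 0, 1 and 0 genes at day 1 and 1, 0 and 3 at day 3 had an unadjusted p under 0.05.

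Cd28, Ctla4 and Icos lie in a row, with starts 0.17 and 0.261 Mb from that of Cd28, and Pdcd1 lies 33.322 Mb away on the same chromosome. Of 52 other annotated genes within 1 Mb of Cd28, 25 were tested. At day 3, 1 was higher and 5 lower in CD28 KO, with 2 higher and 4 lower in DKI, 1 higher and 4 lower in CD28 AYAA, and 1 higher and 3 lower in Ars2 KO. These counts were near the shares of all genes called (20.0%, 23.4%, 21.7% and 12.9%) and are no result about the region. In CD28 Y170F edgeR called 0, and 3 had an unadjusted p under 0.05. Ctla4 and Fam117b were lower and Nop58 was higher in CD28 KO, DKI, CD28 AYAA and Ars2 KO, and Icos was lower in CD28 KO alone. Fam117b averaged 41.2 CPM in CD28 KO, 37.5 CPM in DKI, 33.4 CPM in CD28 AYAA and 52.8 CPM in Ars2 KO, against 89.3 CPM in WT. At day 1 Fam117b was higher in CD28 KO than in WT, at 106.5 against 59.5 CPM (log2 fold change 0.84, SE 0.18, adjusted p = 0.00051).

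**Figure D4:**
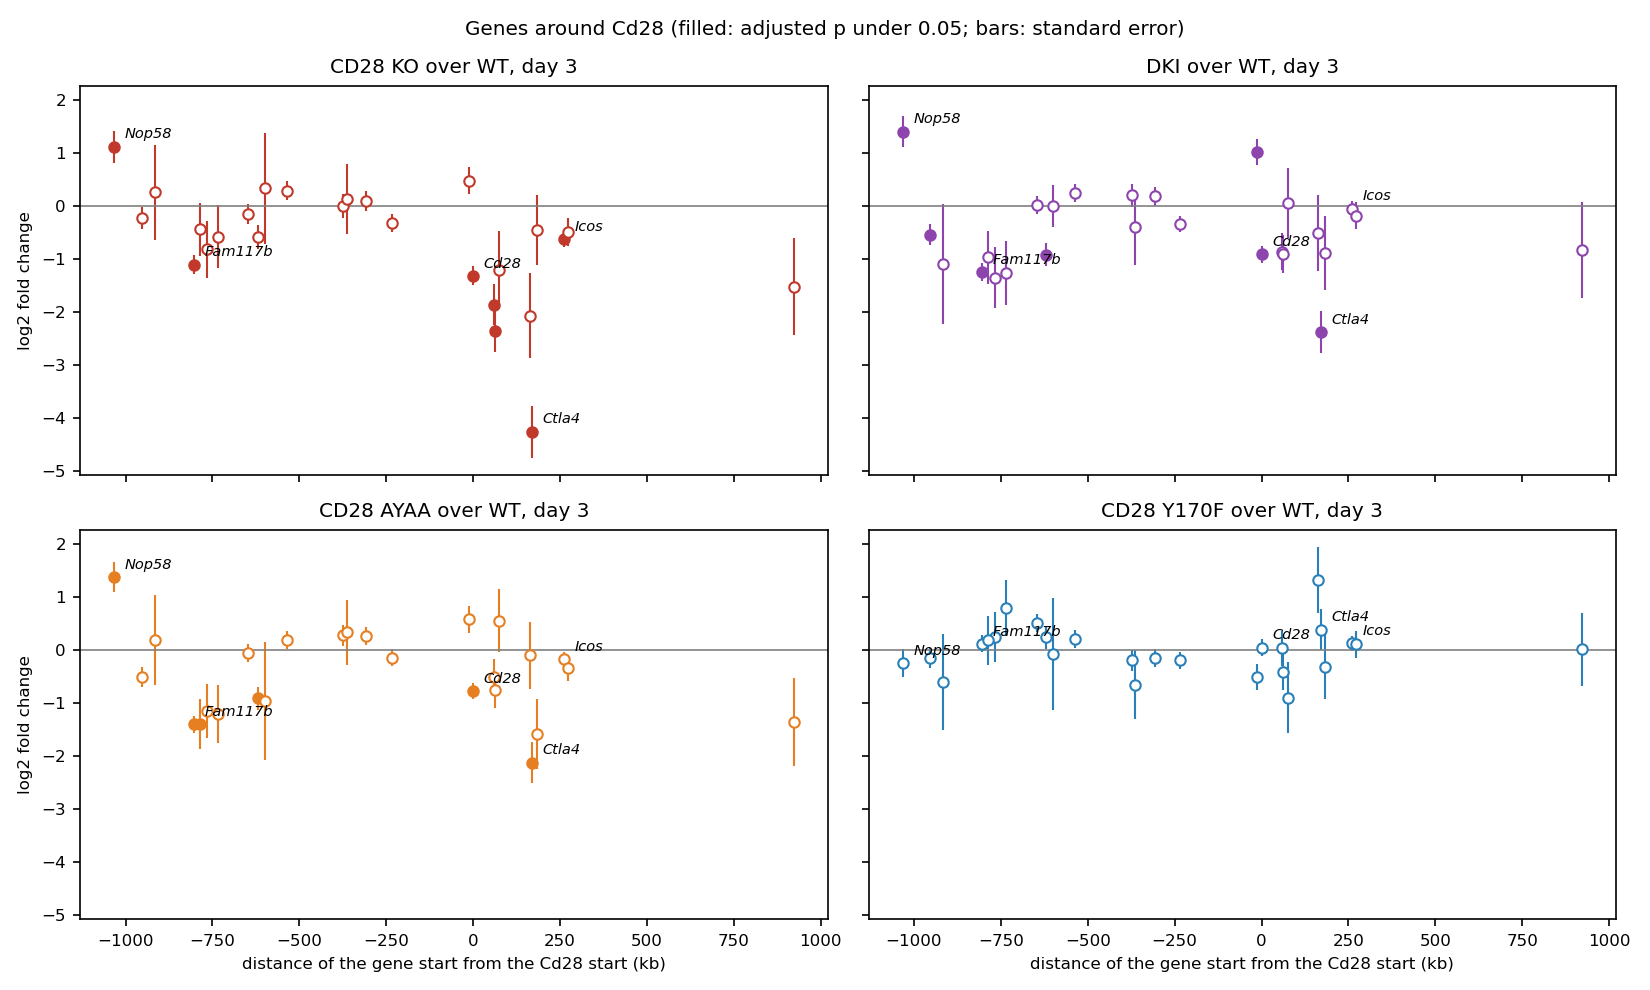
Log2 fold change over WT at day 3 (vertical axis, bars are standard errors) of Cd28 and the 25 tested genes around it, by the distance of each gene start from the Cd28 start in kb (horizontal axis), in libraries labelled CD28 KO, DKI, CD28 AYAA and CD28 Y170F. Filled points have an adjusted p under 0.05. Ctla4 lies at -4.26 in CD28 KO and is the lowest point of each panel but that of CD28 Y170F.

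Over the 13 group means, the genes most like each receptor were named by Pearson's r on log2 CPM, as a description of 13 points that share libraries. Cd5 was followed most closely by Cd6 (0.97), Cd4 (0.96) and Ppp1r12b (0.95). Icos was followed by Tnfrsf4 (0.94) and Tnfrsf18 (0.94), which encode OX40 and GITR, and by Prkca (0.92). Cd28 was followed by Mfsd4a (0.94), Atg13 (0.94) and Elk4 (0.92), and Ctla4 by Nme7 (0.94), Rpgrip1l (0.93) and Eef2 (0.91). Among the receptors themselves, Havcr2 and Cd160 were closest (0.91), followed by Icos and Lag3 (0.84), Pdcd1 and Btla (0.81) and Pdcd1 and Cd5 (0.80). Cd28 ran opposite to Cd160 (-0.91) and Havcr2 (-0.80).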

How the data were processed

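The authors deposited 1 table of expected counts per gene with 34 columns, and 0 columns were unused. The tools named per the submitters' processing notes are RSEM, STAR, FastQC, limma and bcl2fastq (2.20), and the builds are GRCm38 and mm10. The annotation release and strand setting are not given in the sources used here. Of 48526 genes, 48058 (99.0%) matched GENCODE M21 by Ensembl identifier, and symbols and coordinates come from it. For CD28 KO at day 3, column and sample numbers differ, so columns were matched to the group only.

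After rounding, all 34 libraries entered 1 edgeR model (version 4.0.16, R 4.3.3) with a mean for each group. TMM factors and edgeR's default filter on low counts were used, which left 18292 genes. Quasi-likelihood tests were adjusted by Benjamini-Hochberg over all genes, at a threshold of 0.05. Each standard error is the size of the log2 fold change over the square root of F, and intervals are 95%. CPM use TMM library sizes, which were scaled by 0.83 to 0.86 in unstimulated and 0.90 to 1.11 in stimulated libraries. The fit was tested on simulated counts that had the same spread for every gene and no outlying library. That test does not cover calls that hang on a single library. DESeq2 1.42.0 and limma 3.58.1 served as alternatives, with RLE factors, no filter, protein-coding genes alone, the compared groups only, the replicate number as a block, and each library left out. Comparing each genotype with 1 WT library of matching depth (number 4 for DKI, number 1 otherwise) was an alternative added after seeing the data, which takes that lone library to vary like the other groups.

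The 10 genes and the lists were chosen with earlier results of these data known. The 10 were always named. From each list, up to 3 called genes with the smallest adjusted p in a comparison could be named. Genes named as called in several genotypes, the Cd274 means in DKI, CD28 AYAA and Ars2 KO, and Fam117b at day 1 were chosen after their values were seen. Genes like a receptor were the 3 of highest r with a mean log2 CPM of at least 3. Same-numbered CD28 AYAA and CD28 Y170F samples at day 1 deviated together (r of 0.37, 0.37 and 0.65), as did CD28 AYAA at days 3 and 1 (0.41, 0.16 and 0.55), so these numbers were taken to pair the samples. This choice rests on the correlations, not the labels. Between days 3 and 1 the correlations were also 0.55 and 0.55 in WT, and 0.42, 0.21 and -0.11 in Ars2 KO. Calls with the block are not listed between the days of WT or of Ars2 KO. The fit with the block between days nevertheless paired the libraries of WT and of the other genotypes except CD28 KO by number. The calls it added in the change between days of CD28 AYAA from WT thus rest on the WT pairing too. In DKI and CD28 Y170F these correlations ran from -0.14 to 0.15. Nothing in the labels says which samples came from the same animal, so p-values measure the spread between these samples. Plots were made with Python 3.11.15 and matplotlib 3.10.9.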

Additional observations from a re-analysis of the deposited data

Results flagged for a closer look

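Several receptor genes differed from WT by another amount at day 3 than at day 1, by edgeR's test of the difference between the days. Each value is the day 3 log2 fold change minus that of day 1. In libraries labelled CD28 KO, 6 of the 10 genes passed, beside 35.3% of all genes tested. The change was -1.58 for Cd28, -1.91 for Ctla4 and -1.29 for Cd5, and 0.87 for Icos, 1.87 for Tigit and 1.38 for Cd160. In DKI 3 passed, beside 32.4%: -1.33 for Cd28, -1.18 for Cd5 and 0.51 for Icos. In CD28 AYAA 3 passed, beside 24.4%: -1.09 for Cd28, -1.06 for Cd5 and -1.56 for Lag3. With the replicate number as a block, Ctla4 (-1.32, adjusted p = 0.017) and Havcr2 (2.10, adjusted p = 0.017) passed there too. That fit also paired the WT libraries by number. Without the block, the counts of 3 in DKI and in CD28 AYAA were near the shares of all genes. They are no result about the 10 genes as a set. For Cd28 and Cd5 in these 3 genotypes the call held against the WT library of matching depth alone. For Ctla4 (-1.76, adjusted p = 0.1) and Cd160 (1.34, adjusted p = 0.095) in CD28 KO, Icos in DKI (0.37, adjusted p = 0.3) and Lag3 in CD28 AYAA (-1.36, adjusted p = 0.074) it did not, while Lag3 in CD28 KO passed in that fit (1.59, adjusted p = 0.038). In Ars2 KO, edgeR called 0 (beside 3.68%), with 3 at an unadjusted p under 0.05 (Cd28, Ctla4 and Cd5) and 1 each by DESeq2 and limma-voom. In CD28 Y170F it called 0 (beside 0.0%), with 0 at an unadjusted p under 0.05 and 0 by the other tools.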

How the results depend on the processing

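Depth limits the low genes, such as Havcr2, Pdcd1 and Tigit. No called receptor gene changed direction under any alternative run. The 11 calls among 50 tests against WT at day 1 became 7 against the WT library of matching depth alone and 6 to 11 with 1 library left out. The 18 calls at day 3 became 10 against that library alone and 10 to 19 with 1 library left out, the lowest without WT number 4. The 6 at day 1 came without WT number 1. The 19 calls among 80 tests of allele pairs became 29 without the filter on low counts and 36 in the fit to the compared groups only, and 15 to 20 with 1 library left out. The cause was not tested. The other counts stayed within 1.5 times: 17 of 20 for stimulated against unstimulated WT (15 to 17 with 1 library left out), 81 of 100 for genotypes against unstimulated WT (72 to 82), 33 of 60 between days (31 to 35) and 12 of 50 for the change of the difference between days (10 to 15). In the fit to Ars2 KO and WT of day 3 only, 0 genes were called. With the replicate number as a block, the counts were 38 between days, 18 for the change between days and 18 for allele pairs. In the CD28 AYAA comparisons whose numbers were taken to pair the samples, it changed the calls given above (Ctla4 between CD28 AYAA and CD28 Y170F at day 1, Cd160 between the days of CD28 AYAA, and Ctla4 and Havcr2 in its change between days) and no other. Without TMM factors, 9 of the 10 genes kept the group of their highest mean.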
